A study of Mus musculus with 16 samples.

Results

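Cytosolic ribosomal protein genes are the genes whose proteins, together with ribosomal RNA, build the ribosomes of the cytoplasm. They were taken here from the array's gene annotation by name: every probe set with a single gene symbol of the form Rpl, Rps or Rplp followed by a number and at most 1 of the letters a, l or x, with the brightest probe set kept for each gene. This gave 58 of the 19938 genes measured, made up of 30 genes of the large subunit, 19 of the small subunit, 3 of the ribosomal stalk and 6 whose symbols end in l and which are mostly copies of another ribosomal protein gene. Transcript levels were measured in liver RNA of 16 adult mice on Affymetrix MoGene 1.0 ST arrays, which read each transcript with probes spread along its length, with 1 array per animal. The 4 groups of 4 animals were wild type on control diet, wild type on high-fat diet, Gli2 heterozygous (Het) on control diet and Gli2 heterozygous on high-fat diet, each kept on its diet for 12 weeks. Gli2 is a transcription factor of the hedgehog pathway, and the heterozygotes carry a null allele in every cell of the body, so no group isolates the hepatocyte. The genotype field of the wild-type animals names Gli1 while the series text names only Gli2, and these animals are treated as wild type. The sources used here give neither sex, strain nor exact age. All values are log2 RMA levels, differences are differences of log2 levels, and animals are numbered within a group in the order of their records, which pairs no animals.

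Ribosomal proteins are needed in near-equal amounts, and their mRNAs are among the most abundant of any growing or secreting cell. Their synthesis is controlled together, largely at translation: most of these mRNAs begin with a cytosine followed by a run of pyrimidines (a 5′ terminal oligopyrimidine, or TOP, start), through which the growth-regulating kinase complex mTORC1 and the RNA-binding protein LARP1 switch their translation on and off with nutrients. In liver, a tissue that makes most plasma proteins, this switch follows feeding and fasting. Transcript arrays read the amount of mRNA and not its translation.

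The start-site sequences of a few members are shown because the TOP start is the feature that most defines the family, and because the genes that differed most between diets can be set beside it. Windows come from a RefSeq promoter table of build GRCm38.p6 and hold 20 bases on each side of the annotated start, written 5′ to 3′ along the gene, with the longest run of C and T in capitals. The first 3 are members whose annotated start is a C followed by at least 4 more pyrimidines: Rps6 at chr4:86857348-86857387 (minus strand), Rpl28 at chr7:4792945-4792984 (plus) and Rplp2 at chr7:141447631-141447670 (plus).
Rps6: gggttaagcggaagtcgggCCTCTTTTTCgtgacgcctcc
Rpl28: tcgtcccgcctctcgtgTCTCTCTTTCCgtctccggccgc
Rplp2: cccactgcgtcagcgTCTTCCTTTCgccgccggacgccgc
The next are the members that were called lower by diet in heterozygotes: Rps12 at chr10:23787190-23787229 (minus), Rps28 at chr17:33824543-33824582 (minus), Rpl24 at chr16:55966255-55966294 (plus), Rpl12 at chr2:32961692-32961731 (plus), Rpl26 at chr11:68901546-68901585 (plus) and Rps4x at chrX:102189372-102189411 (minus).
Rps12: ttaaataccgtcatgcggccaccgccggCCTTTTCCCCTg
Rps28: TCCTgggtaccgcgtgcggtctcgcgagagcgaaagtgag
Rpl24: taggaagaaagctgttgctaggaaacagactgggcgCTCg
Rpl12: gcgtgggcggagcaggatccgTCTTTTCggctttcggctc
Rpl26: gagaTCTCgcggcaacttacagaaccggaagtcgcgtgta
Rps4x: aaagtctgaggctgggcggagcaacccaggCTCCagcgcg
None of these last 6 annotated starts falls on a C with 4 pyrimidines after it. In Rps12 a run of 11 pyrimidines begins 8 bases after the annotated start, and in Rpl12 a run of 7 begins 1 base after it.

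Promoter windows were found for 46 of the 58 genes, 55 windows in all. A start of C and 4 pyrimidines stood at the annotated position in 10 of the 55 windows (18.2%), against 823 of all 32851 windows in the table (2.51%). Those 10 are Rpl14, Rpl28, Rpl32l, Rpl38, Rplp2, Rps6, Rps10, Rps15a, Rps18 and Rps21. The core letters CCGGAAG of ETS-family sites, searched on both strands of the 300 bases from 250 before to 50 after the start, stood in 32.7% of the ribosomal protein windows and in 8.86% of all windows. The E-box CACGTG, the site of Myc and related factors, stood in 7 windows of 5 genes (12.7% against 7.15%). The YY1 core AAGATGG stood in 4 windows (7.27% against 6.34%) and the TATA box TATAAA in 6 (10.9% against 13.6%). These are few windows, and those of 1 gene can overlap. CCGGAAG and AAGATGG can overlap by the letters AAG. These counts are matches of letters at annotated starts, and a start annotated a few bases away from the true one would not be counted.

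Before the results, 1 array needs naming. Het_control 2, animal 2 of the heterozygous control group, correlated with the other arrays at 0.9612 to 0.9788 over all genes, against 0.9905 to 0.9975 among the other 15, and its values spread less. Most results that rest on it are given with and without it. The values of the probe sets not chosen are given with it only. The liver label was checked with hepatocyte markers: the mean log2 level of 11 of 12 hepatocyte markers (albumin, apolipoproteins and others) lay between 13.5 and 13.7 in every array. Gli2 itself read 7.54 to 7.58 in wild type and 7.50 to 8.14 in heterozygotes on control diet, 8.14 being Het_control 2. High-fat animals read 7.40 to 7.57 (wild type) and 7.46 to 7.61 (Het). Since the labels do not say which part of the gene is deleted, this probe set does not check the genotype.

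Ribosomal protein transcripts were lower in value on the high-fat diet in both genotypes. To see this array by array, each gene was set against its own mean over the 16 arrays and the median of the 58 deviations was taken. In wild type this median was 0.07, 0.11, -0.05 and 0.12 in control animals 1 to 4 and -0.04, 0.01, -0.06 and -0.15 in high-fat animals 1 to 4. Heterozygous controls 1 to 4 gave 0.14, 0.01, 0.18 and -0.01, and their high-fat counterparts -0.13, -0.01, -0.09 and -0.11. The groups overlapped: wild-type control 3 lay among the high-fat arrays, and Het_control 2 (0.0103) and Het_control 4 (-0.0131) were also below the highest of them, wild-type high-fat 2 (0.0125). Against the heterozygous high-fat arrays alone, Het_control 2 was above all and Het_control 4 just below the highest (-0.0112). The group means were 0.06 ± 0.08 (SD, n = 4) and -0.06 ± 0.07 in wild type and 0.08 ± 0.10 and -0.08 ± 0.05 in heterozygotes. The same median over all genes stayed between -0.03 and 0.01 in 15 arrays and was 0.12 in Het_control 2. In bulk tissue, fewer cells of a type and less RNA per cell cannot be told apart.

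**Figure D1:**
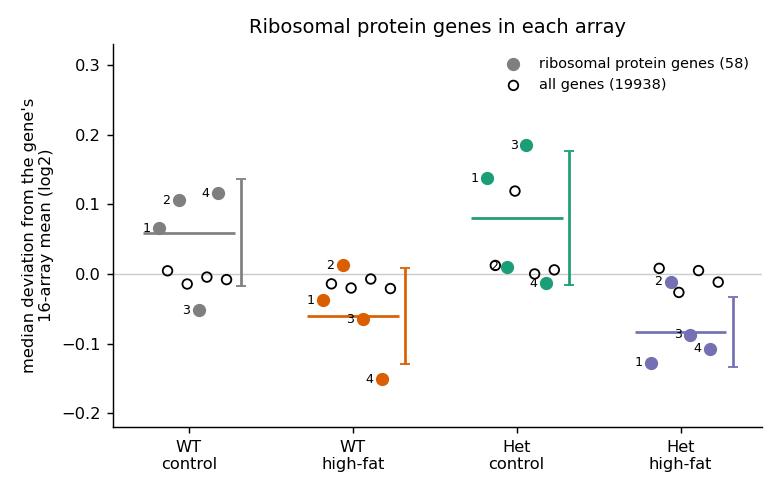
Median deviation (log2) of the 58 ribosomal protein genes (filled points, numbered by animal) and of all 19938 genes (open points) from each gene's mean over 16 arrays, by group. Horizontal lines are group means and side bars 1 SD (n = 4): on control diet the means are 0.06 (WT) and 0.08 (Het), the high-fat means are -0.06 and -0.08, and the groups overlap.

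The genes did not deviate evenly within an array. In Het_control 2 the 58 deviations had an SD of 0.32, with 31 genes above their own mean and the rest below, while in Het_control 3, 57 of 58 were above. At the other end, 4 of 58 were above their mean in Het_HFD 1 and 6 in Het_HFD 3. The most variable members over the 16 arrays were Rps12 (SD 0.43), Rps28 (0.32) and Rps9 (0.30), all of the small subunit, and the smallest SD was that of Rps2 (0.04). Rps2 helps line the channel through which mRNA enters, and it read between 13.21 and 13.36 in all 16 arrays. Its probe set is among the brightest, its other probe sets correlated with it at only 0.122 and 0.487 over the arrays, and whether so bright a probe set can show a change in mRNA was not tested.

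**Figure D2:**
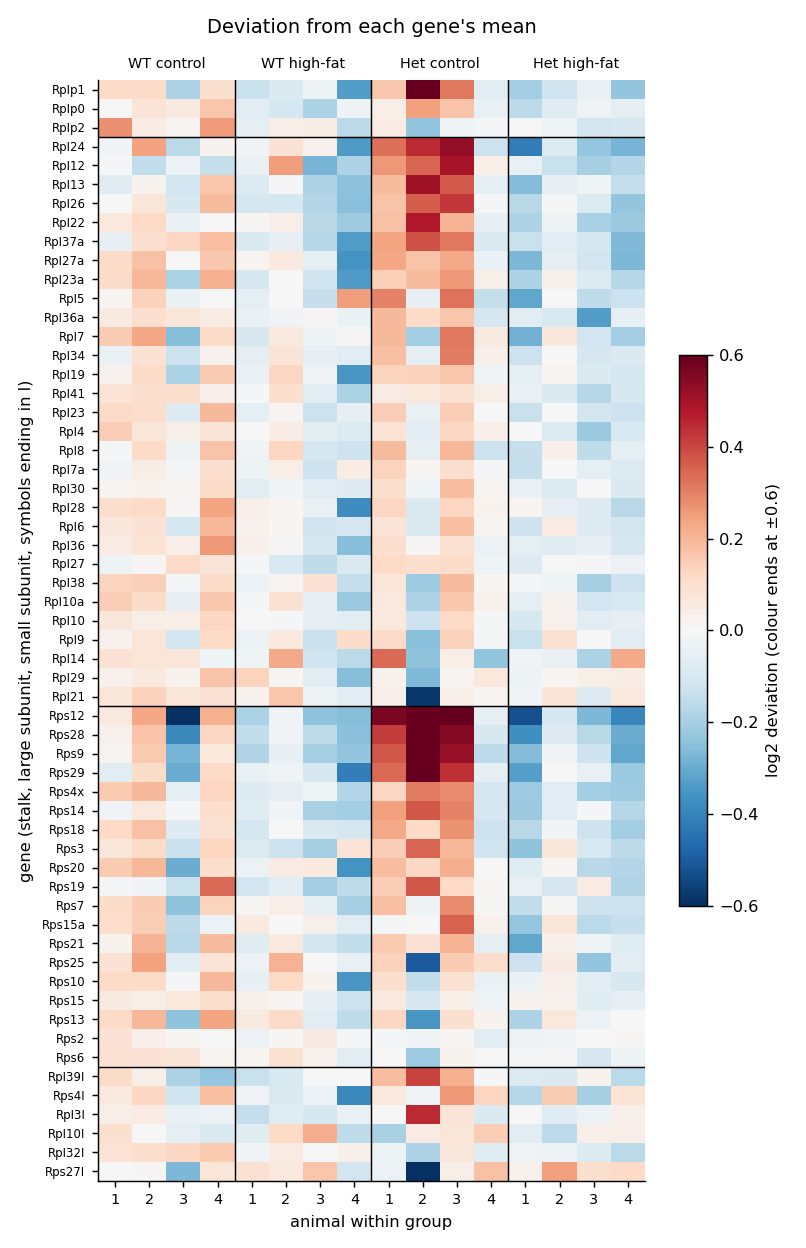
Deviation of each of the 58 genes (rows, by class) from its own 16-array mean in each animal (columns, by group), as log2, with colours ending at ±0.6. Most genes are above their mean in Het_control 1 and 3 and below it in the heterozygous high-fat animals, and Het_control 2 holds both strong increases such as Rps12 and decreases such as Rps27l.

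In wild type, 54 of the 58 genes were lower in value on the high-fat diet, with a median difference of -0.11 (fold 0.926) and a range from -0.25 to 0.10. Over all genes 56% were lower and the median was -0.01. No member was called, that is, none had a limma adjusted p under 0.05, and neither was any other gene (0% of all genes). At an unadjusted p under 0.05 there were 10 members, all lower, against 2.9% of all genes lower. In 9 members (Rpl10, Rpl26, Rpl30, Rpl32l, Rpl36, Rpl36a, Rpl37a, Rplp0 and Rps15) every high-fat animal read below every control animal, against 5% of all genes. The medians were -0.18 for the 3 stalk genes, -0.11 for the 30 large-subunit genes, -0.12 for the 19 small-subunit genes, all 19 of them lower, and -0.04 for the 6 genes with symbols ending in l.

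The 3 members with the smallest p in wild type were Rpl36, Rpl37a and Rplp0. Rpl37a, a zinc-binding protein of the large subunit, read 11.86, 12.00, 12.03 and 12.09 on control diet, against 11.82, 11.86, 11.74 and 11.57 on high-fat diet. Control animal 1 and high-fat animal 2 nearly met and the other arrays were apart. The difference was -0.25 (SE 0.09, limma adjusted p = 0.632). Rpl36, also of the large subunit, read 12.24 to 12.46 on control diet and 11.94 to 12.23 on high-fat diet, a difference of -0.19 (SE 0.07, adjusted p = 0.624).

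In heterozygotes, 6 members were called lower on the high-fat diet and none higher: Rps12, Rps28, Rpl24, Rpl12, Rpl26 and Rps4x. Over all genes 0.712% were called lower and 1.5% higher. The median over the 58 genes was -0.16 (fold 0.894) with a range from -0.85 to 0.25, 52 of 58 being lower in value, against a median of -0.05 and 59.5% lower over all genes. At an unadjusted p under 0.05 there were 31 members, all lower, against 17.7% of all genes lower. In 7 members (Rpl12, Rpl23a, Rpl26, Rpl27a, Rpl36, Rpl41 and Rps12) every high-fat animal read below every control animal, against 7.15% of all genes. The small-subunit genes had a median of -0.23, the stalk genes -0.18, the large-subunit genes -0.15 and the genes ending in l -0.09.

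Rps12, a protein at the beak of the small subunit, differed most. On control diet the heterozygotes read 11.30, 11.60, 11.48 and 10.67, and on high-fat diet 10.21, 10.63, 10.46 and 10.34. Animals 1 to 3 of the control group stood well above all others and animal 4 was just above the highest high-fat animal. The difference was -0.85 (SE 0.19, fold 0.554, limma adjusted p = 0.0354). Wild-type animals read 10.79, 10.96, 10.12 and 10.94 on control diet, against 10.54, 10.71, 10.49 and 10.48 on high-fat diet, so control animal 3 lay below every other array of the study.

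Rps28, which sits near the exit of the mRNA channel on the small subunit, read 11.79, 12.04, 11.92 and 11.27 in heterozygous controls and 11.00, 11.29, 11.20 and 11.07 on high-fat diet. Again animals 1 to 3 of the controls were high, and animal 4 fell among the high-fat animals. Its difference was -0.61 (SE 0.14, fold 0.653, adjusted p = 0.0412). Rpl24, a large-subunit protein that reaches across to the small subunit, had the same 3 high controls, with 11.61, 11.73, 11.81 and 11.15 on control diet, against 10.87, 11.20, 11.05 and 11.00 on high-fat diet, a difference of -0.55 (SE 0.13, fold 0.684, adjusted p = 0.0448).

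Rpl12, which forms the base of the stalk together with Rplp0, read 7.71, 7.80, 7.95 and 7.49 in heterozygous controls and 7.40, 7.32, 7.25 and 7.28 on high-fat diet. The diets did not overlap, and the difference was -0.42 (SE 0.10, adjusted p = 0.0472). It is a dim probe set, among 5 members (with Rpl10l, Rpl14, Rpl39l and Rpl3l) whose mean level was below the median gene. Rpl26, near the exit of the peptide tunnel, differed by -0.36 (SE 0.09, adjusted p = 0.0479) and Rps4x, the X-linked small-subunit protein, by -0.33 (SE 0.08, adjusted p = 0.0499). In Rps4x the heterozygous controls read 12.08, 12.27, 12.24 and 11.85 and the high-fat animals 11.74, 11.89, 11.75 and 11.74, so control 4 fell below high-fat animal 2.

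**Figure D3:**
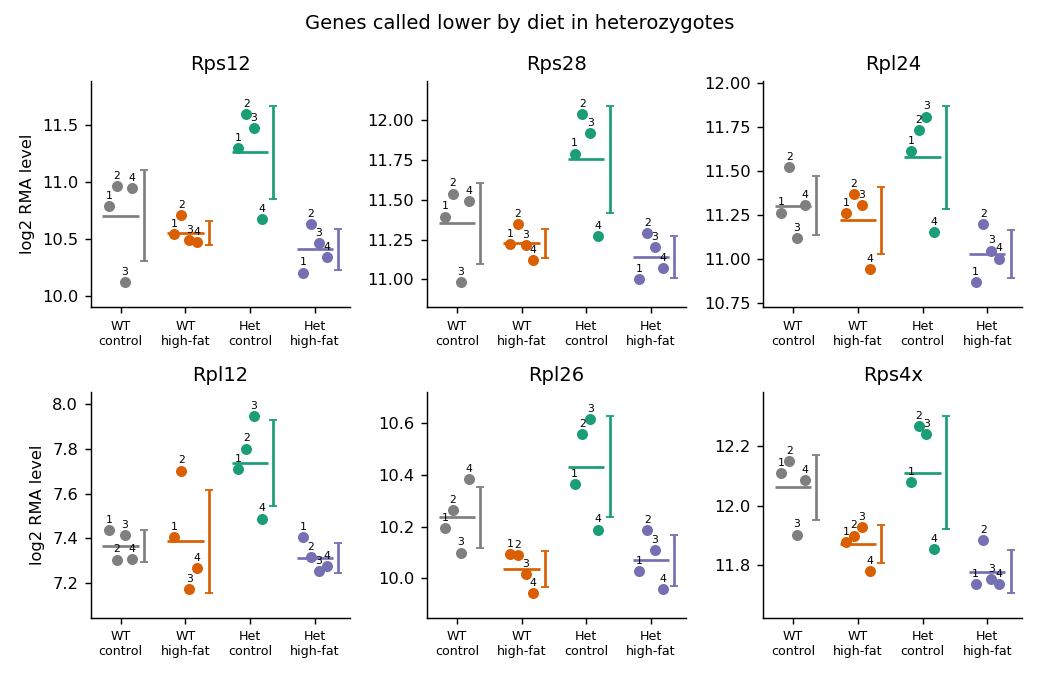
Log2 RMA level of the 6 genes called lower by diet in heterozygotes, per animal (points, numbered) with the group mean (line) and 1 SD (side bar, n = 4); the axes do not start at 0. Het control animals 1 to 3 stand above the Het high-fat animals in all 6 panels and animal 4 is the lowest of its group, at 10.67 for Rps12.

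These calls lay close to the threshold and turned on single arrays. Without Het_control 2 no member was called, beside 0.873% of all genes in either direction. The limma adjusted p of the 6 then lay between 0.0672 and 0.0895, and Rps12 differed by -0.74. Over all 58 genes, though, the differences were then more even: 56 were lower in value, the median was -0.18 against -0.02 over all genes, 32 members had an unadjusted p under 0.05, all lower (9.41% of all genes lower), and in 16 every high-fat array lay below every remaining control array (8.29% of all genes). The class medians were -0.17 for the large subunit, -0.23 for the small, -0.13 for the stalk and -0.05 for genes ending in l. Without Het_control 4, by contrast, 21 members were called lower, while the share of all genes called in either direction was 17.3%, against 2.22% with all arrays. Leaving out 1 of Het_control 1 or 3, any of the 4 heterozygous high-fat arrays or wild-type control 1 also left 0 called. In these settings 0.226% to 0.958% of all genes were called. None of the numbers in the sample titles, which the labels do not explain, is shared by heterozygotes of different diets, so whatever they mark cannot be told apart from diet there. Other members missed the threshold narrowly with all arrays, among them Rps9 at -0.53 (SE 0.14, limma adjusted p = 0.0512) and Rpl37a at -0.35 (SE 0.09, adjusted p = 0.0537). Rpl22 and Rps29 were chosen after their values were seen. Rpl22 read -0.36 (SE 0.09, adjusted p = 0.0512). Rps29 read -0.48 (SE 0.13, adjusted p = 0.0593) with the same high control animals 1 to 3. Without Het_control 2, Rps9 read -0.42 (adjusted p = 0.106), Rpl37a -0.30 (adjusted p = 0.106), Rpl22 -0.27 (adjusted p = 0.0893) and Rps29 -0.39 (adjusted p = 0.125).

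Averaged over the genotypes, 56 of 58 members were lower in value on the high-fat diet (59.6% of all genes), and 4 were called lower and none higher (0.512% and 1.35% of all genes): Rpl37a (-0.30, SE 0.07, limma adjusted p = 0.0301), Rpl26 (-0.28, SE 0.06, adjusted p = 0.0336), Rps4x (-0.26, SE 0.06, adjusted p = 0.0366) and Rpl27a (-0.26, SE 0.06, adjusted p = 0.0467). This comparison uses the same arrays as those within each genotype. The median was -0.14 against -0.04 over all genes, and 31 members had an unadjusted p under 0.05, all lower, against 14.6% of all genes lower. In no member did all 8 high-fat arrays lie below all 8 control arrays, which 0.251% of all genes did. Rpl27a, a protein of the large subunit, read 11.56 to 11.74 on control and 11.20 to 11.62 on high-fat diet in wild type, and 11.52 to 11.79 and 11.29 to 11.51 in heterozygotes. Without Het_control 2 these 4 genes were called again, at adjusted p from 0.0262 to 0.0384 in limma, and no other member. The share of all genes called in either direction was then 3.57%, and 57 of 58 members were lower in value (58.5% of all genes). Without Het_control 4, 21 members were called, beside 8.80% of all genes in either direction (1.86% with all arrays). No member was called without wild-type control 2 or 4, Het_control 3, wild-type high-fat 3 or 4, or Het high-fat 1, 3 or 4. In these settings 0.522% to 1.11% of all genes were called.

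The stalk of the ribosome, which recruits the elongation factors, is built from Rplp0 carrying pairs of Rplp1 and Rplp2. Rplp0 read 12.88, 12.96, 12.94 and 13.05 in wild-type controls and 12.81, 12.77, 12.69 and 12.85 on high-fat diet. The groups did not overlap, and the difference of -0.17 (SE 0.07, limma adjusted p = 0.660) stood beside -0.18 (SE 0.07, adjusted p = 0.110) in heterozygotes, or -0.13 without Het_control 2. The other probe set of Rplp0, of mean level 12.85 against 12.88, gave smaller differences of -0.09 in wild type and -0.13 in heterozygotes with all arrays. Rplp1 read 13.28, 13.77, 13.44 and 13.05 in heterozygous controls, Het_control 2 being the highest of all 16 arrays, and 12.91, 13.00, 13.08 and 12.88 on high-fat diet, a difference of -0.42 (SE 0.12, adjusted p = 0.0629) that was -0.29 without Het_control 2. In wild type Rplp1 differed by -0.18 (SE 0.12, adjusted p = 0.885). Rplp2 differed by -0.18 (SE 0.08, adjusted p = 0.742) in wild type, where it read 9.13 ± 0.14 (SD, n = 4) on control and 8.95 ± 0.09 on high-fat diet. In heterozygotes it read 8.74 to 9.03 on control and 8.87 to 8.98 on high-fat diet, a difference of -0.0012 (SE 0.08, adjusted p = 0.991), or -0.06 without Het_control 2. Its lowest value was in Het_control 2, the array where Rplp1 was highest, so the stalk genes did not move as a unit there.

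Among the 6 genes ending in l, Rps27l was the one with a higher value on high-fat diet in heterozygotes, while in wild type Rpl10l (0.04) and Rpl39l (0.01) were higher too. Rps27l is a p53-induced relative of Rps27, and it read 11.98 to 12.32 on control and 12.14 to 12.42 on high-fat diet in wild type. In heterozygotes it read 12.21, 11.58, 12.28 and 12.42 on control and 12.27, 12.50, 12.35 and 12.37 on high-fat diet, the low value being Het_control 2. The differences were 0.10 (SE 0.14, limma adjusted p = 0.950) and 0.25 (SE 0.14, adjusted p = 0.208), each the highest of the 58 genes, and the second was 0.06 without Het_control 2. The tissue-restricted copies gave dim signals: Rpl39l, the relative of an exit-tunnel protein known from testis, read 5.68 to 6.32 over all arrays, Rpl3l, known from striated muscle, 6.63 to 7.22, and Rpl10l, known from testis, 7.56 to 7.97. Whether these levels are signal above background is not known from RMA values, and brightness also depends on the probes. Rpl10, the common partner of Rpl10l, read 13.15 to 13.40 and differed by -0.10 (SE 0.06, adjusted p = 0.864) and -0.06 (SE 0.06, adjusted p = 0.467). The partners Rpl3, Rpl39 and Rps27 had only probe sets with several symbols and were not analysed here.

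Rps6, the classic substrate of the S6 kinases that act below mTORC1, was the brightest member. It read 13.63 to 13.70 in wild-type controls, 13.55 to 13.70 on high-fat diet, 13.39 to 13.63 in heterozygous controls and 13.51 to 13.61 on high-fat diet. Its diet differences were -0.05 (SE 0.06, limma adjusted p = 0.947) and 0.01 (SE 0.06, adjusted p = 0.907), the second turning to -0.05 without Het_control 2. Members with an annotated TOP start, of which Rps6 is one, had median diet differences of -0.12 in wild type and -0.07 in heterozygotes (10 genes), against -0.10 and -0.19 in the 36 other genes with a window. Without Het_control 2 the heterozygous medians were -0.13 and -0.19.

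Across the 58 genes, 49 were lower in value on the high-fat diet in both genotypes. The difference was more negative in heterozygotes in 39 members, against 57.5% of all genes. Without Het_control 2 this was so in 42 members, against 52.1% of all genes. The 2 diet comparisons share no arrays. Pearson's r between the differences was 0.325 and Spearman's rho 0.329 (n = 58 genes, 0.245 for r without Het_control 2). These are descriptions over genes of the same arrays, which are not independent replicates. Neither the count lower in both genotypes nor the correlations were set against all genes.

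**Figure D4:**
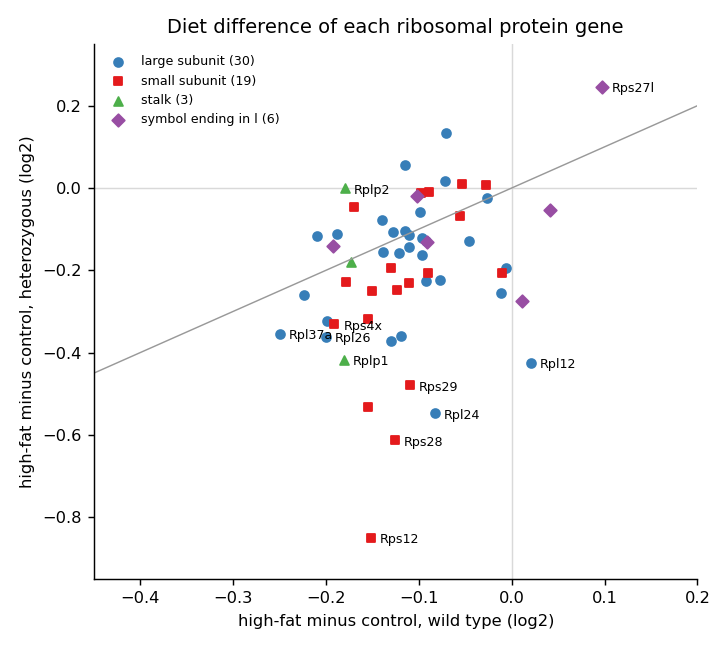
Diet difference (high-fat minus control, log2) of each of the 58 genes in wild type (x axis) and heterozygotes (y axis), by class, with the line of equality. Most points (49 genes) are below 0 on both axes, with Rps12 at -0.85 and Rps28 at -0.61 far below the line and Rps27l above 0 on both axes.

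No member was called by genotype on either diet. On control diet, 35 members were higher and 23 lower in heterozygotes (39.4% of all genes lower), the median being 0.03 against 0.04 over all genes, and limma called 0 members (0% of all genes). At an unadjusted p under 0.05 there were 10 members, 8 higher and 2 lower, against 15.7% of all genes. The smallest p belonged to Rpl12 (0.37, SE 0.10, adjusted p = 0.279), whose 4 heterozygous arrays all lay above the wild-type ones (as in 4.03% of all genes), followed by Rpl39l (0.27, SE 0.09, adjusted p = 0.281) and Rps12 (0.56, SE 0.19, adjusted p = 0.281). In 2 members, Rpl21 and Rpl32l, all 4 heterozygous arrays lay below the wild-type ones, as in 418 of the 19938 genes. This comparison shares the heterozygous control arrays with the diet comparison, so the high animals 1 to 3 enter both. Without Het_control 2 the median was 0.04 against 0.01 over all genes, 19 members were lower and 6 had an unadjusted p under 0.05 (8.03% of all genes). Rpl12 then read 0.35 (limma adjusted p = 0.450), Rpl39l 0.20 (adjusted p = 0.558) and Rps12 0.44 (adjusted p = 0.585). Rpl21 went from -0.22 to -0.07 and Rpl32l from -0.17 to -0.13. On high-fat diet the median was -0.02 against 0.01 over all genes, 39 members were lower (46.2% of all genes), none was called (0.00502% of all genes) and none had an unadjusted p under 0.05, against 3.57% of all genes. The smallest p there belonged to Rpl36a, at the exit site for tRNA, with -0.11 (SE 0.07), Rpl32l with -0.09 (SE 0.06) and Rpl5, which carries 5S RNA into the large subunit, with -0.16 (SE 0.11), all at an adjusted p of 0.9996.

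The difference between the diet effects, heterozygous minus wild type, was tested as an interaction. It had a median of -0.04 against -0.03 over all genes, 39 members being below 0 (57.5% of all genes), and no member was called (0% of all genes). There were 5 members at an unadjusted p under 0.05, all negative, against 3.97% of all genes negative. Rpl12 read -0.44 (SE 0.15, limma adjusted p = 0.448), Rps12 -0.70 (SE 0.26, adjusted p = 0.529) and Rpl24 -0.46 (SE 0.18, adjusted p = 0.557). Without Het_control 2 the median was -0.07 against -0.01 over all genes and 4 members had an unadjusted p under 0.05, all negative (4.07%). Rpl12 then read -0.42 (limma adjusted p = 0.385), Rps12 -0.59 (adjusted p = 0.539) and Rpl24 -0.41 (adjusted p = 0.551). A larger diet effect in heterozygotes was therefore not shown for any member, although calls were made in heterozygotes only.

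Most members had more than 1 probe set, though not every one of these is a separate reading. The 58 genes had 210 probe sets, with up to 14 for a gene (Rps12). Of the 152 not chosen, 147 were lower in value on the high-fat diet in wild type and 134 in heterozygotes. The other 13 of Rps12 ranged from -0.91 to -0.76 in heterozygotes and the other 6 of Rps28 from -0.68 to -0.60. In Rps9 the other probe set disagreed in size, with -0.17 in heterozygotes and a correlation of 0.561 with the chosen one over the 16 arrays. Lower correlations were those of the other probe sets of Rps2, at 0.122 and 0.487, which read -0.07 and 0.09 in heterozygotes, and of 1 probe set of Rpl23a, at 0.526, which read -0.12. Some probe sets repeated the values of another exactly: both others of Rpl41 and several of Rps12 equalled the chosen one, so the counts and ranges above include repeats. Ribosomal protein genes have many processed copies in the genome, probe sets of 1 gene can share probes or read such copies, and so they are no independent measurement. A further 16 ribosomal protein symbols occurred only in probe sets with several symbols and were not analysed here.

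The members were bright, and brightness bears on the comparison with all genes. Of the 58, 53 had a mean level above the median gene. Among the 9969 genes of that brighter range, the median diet difference was 0.02 in wild type and 0.07 in heterozygotes, while the 53 members in it read -0.11 and -0.16. Without Het_control 2 the heterozygous values were 0.02 and -0.18.

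Other parts of the translation machinery were set beside the ribosomal protein genes, from lists chosen with earlier results of these data known. Ribosomal proteins whose names the rule does not cover had medians of -0.08 in wild type and -0.17 in heterozygotes (4 of 8 measured). Among them Rpsa, a small-subunit protein also known as the laminin receptor, was called lower in heterozygotes (-0.52, SE 0.13, limma adjusted p = 0.0494), and no longer without Het_control 2. Translation factors and other mRNAs known for TOP starts (15 of 17 measured) had medians of -0.09 in each genotype, 13 and 10 of 15 being lower, and none was called. Eef1b2, a subunit of the exchange factor for elongation factor 1, read -0.20 (SE 0.09, adjusted p = 0.759) in wild type, and its relative Eef1d read -0.26 (SE 0.09, adjusted p = 0.0932) in heterozygotes, or -0.15 (adjusted p = 0.192) without Het_control 2. Ribosome biogenesis genes (29), whose products make and process ribosomal RNA in the nucleolus, had medians of 0.02 and -0.03 (-0.06 in heterozygotes without Het_control 2) with none called. The acetyltransferase Nat10 read 0.15 (SE 0.06, adjusted p = 0.656) in wild type and the processing factor Pes1 -0.28 (SE 0.09, adjusted p = 0.0814) in heterozygotes. Without Het_control 2, Pes1 read -0.21 (limma adjusted p = 0.189) in heterozygotes.

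Genes of mTORC1 and its partners (18 of 19 measured) had medians of 0.07 and 0.09 (0.03 in heterozygotes without Het_control 2). In heterozygotes Larp4, an RNA-binding protein that acts on poly(A) tails, was called lower (-0.35, SE 0.09, limma adjusted p = 0.0468) and Mlst8, a core subunit of the complex, higher (0.38, SE 0.09, adjusted p = 0.0473), neither without Het_control 2. Mitochondrial ribosomal protein genes, which serve the separate ribosomes of the mitochondria, leaned the other way from the cytosolic ones: 60 of 77 were higher in value in each genotype, with medians of 0.07 and 0.18 (0.09 without Het_control 2). Over all 19938 genes, 8780 were higher in wild type and 8083 in heterozygotes. Among the 9969 brighter genes these counts were 5871 and 6434. Of the mitochondrial ribosomal protein genes, Mrpl49 was called higher (0.39, SE 0.09, adjusted p = 0.0428) and Mrps16 lower (-0.41, SE 0.10, adjusted p = 0.0482) in heterozygotes, and neither without Het_control 2. Whether the cytosolic and mitochondrial sets differed was not tested.

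**Figure D5:**
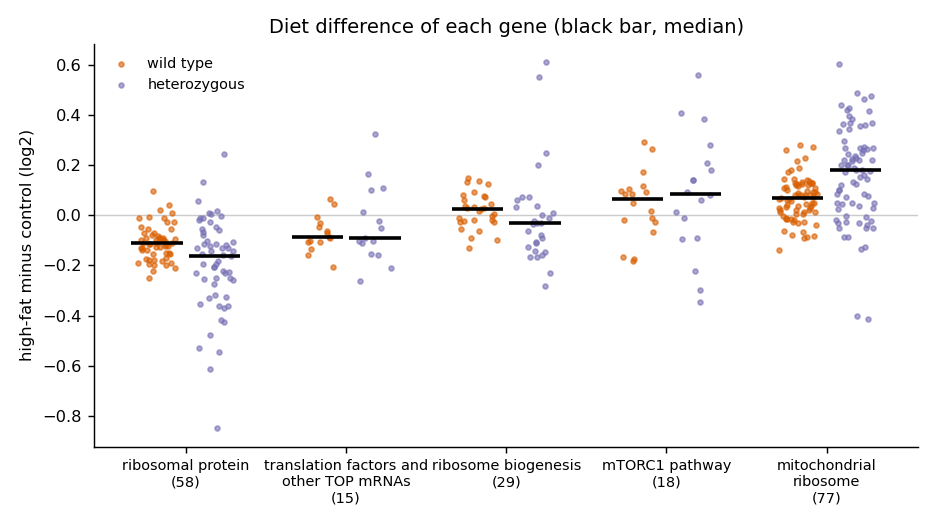
Diet difference (high-fat minus control, log2) of each gene in wild type (orange) and heterozygotes (purple) for 5 gene groups, with the number of genes in brackets and the median as a black bar. The cytosolic ribosomal protein medians are -0.11 and -0.16 and the mitochondrial ribosome medians 0.07 and 0.18.

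Markers of other liver cells also read differently between the diets in the same arrays. Over all genes, 56% were lower in value on the high-fat diet in wild type and 59.5% in heterozygotes. Lymphocyte markers (13 of 16 measured) were lower in value in 11 of 13 in wild type, with a median of -0.19, and their mean log2 level per array ranged from 7.61 to 7.65 on control and 7.40 to 7.46 on high-fat diet. In heterozygotes the median was -0.03, with ranges of 7.48 to 7.78 and 7.55 to 7.69. The value of 7.78 was Het_control 2, without which the median was 0.07. Macrophage markers (12 of 12) were higher in all 12 in heterozygotes, 8 of them called higher, beside 1.5% of all genes. Without Het_control 2, 4 were called, beside 0.873% of all genes in either direction. The macrophage markers had a median of 0.61 in heterozygotes (0.49 without Het_control 2) and ranges of 9.71 to 10.2 and 10.4 to 10.7. In wild type their median was -0.04, with ranges of 10.2 to 10.4 and 9.96 to 10.5. Cell cycle genes (11 of 12) had medians of -0.26 in wild type and 0.20 in heterozygotes, and endothelial markers (10 of 10) -0.13 and 0.16 (0.10 without Het_control 2). Markers of bile duct cells (5 of 8 measured) were lower in all 5 in heterozygotes, with a median of -0.23 (-0.19 without Het_control 2) and ranges of 8.04 to 8.24 and 7.81 to 7.97 that did not overlap. In wild type 4 of 5 were lower, with a median of -0.05 and ranges of 7.89 to 8.12 and 7.84 to 8.01. Pancreatic markers (8 of 10) were lower in all 8 in heterozygotes, with a median of -0.17 (-0.09 without Het_control 2) and ranges of 7.98 to 8.36 and 7.84 to 8.02, the 8.36 being Het_control 2. In wild type 6 of 8 were lower, with a median of -0.04 and ranges of 7.92 to 7.98 and 7.88 to 7.97. Erythroid markers (6 of 10) had medians of -0.05 in wild type and -0.16 in heterozygotes (-0.04 without Het_control 2), and stellate cell markers (10 of 10) 0.00 and 0.09 (0.06 without it). No gene of the bile duct, pancreatic or erythroid lists was called in either genotype. Hepatocyte markers had medians of 0.01 and 0.00 (-0.03 in heterozygotes without Het_control 2). RMA values have no 0, so none of these markers can be called absent. The part of these cells in the ribosomal protein differences was not tested.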

How the data were processed

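The authors deposited log2 expression levels, 1 per probe set and array. The submitters' processing notes name RMA and Affymetrix Expression Console, with no versions. Quantile normalization within RMA acts on the probe values, so a shift of all transcripts together would largely be removed. The deposited levels still differed in distribution: the interquartile range over genes was 1.95 in Het_control 2, against 2.40 to 2.60 in the other arrays. Of 35556 probe sets, 21789 had a single gene symbol and gave 19938 genes, each represented by its brightest probe set. All other probe sets were left out.

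All 16 arrays entered 1 fit in limma 3.58.1 (R 4.3.3), with a mean per group, lmFit and eBayes. The 6 contrasts were diet within each genotype, diet averaged over genotypes, genotype within each diet, and the interaction. P-values were adjusted by Benjamini-Hochberg over all 19938 genes, and the threshold for a call was an adjusted p under 0.05. They treat animals as independent. The sample titles hold 11 numbers of unstated meaning, 5 of them on more than 1 array, which were tried as a random block. The fit was tested on simulated data. Alternatives were a repeated quantile normalization, trend and robust moderation, array weights, genes above the median level only, the mean of a gene's probe sets, the 2 groups alone, leaving out each array, and, chosen after seeing the data, centring each array on its median gene.

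The members and lists were chosen with earlier results of these data known. Named members are those called in a contrast (at most 10 per direction by p), otherwise the 3 with the smallest p, the stalk genes, the tissue-restricted or stress-linked copies and their partners, and the 3 highest, lowest and most variable. For other lists, up to 2 genes with the smallest p are named. With 4 arrays per group, precision is limited by their number.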

Additional observations from a re-analysis of the deposited data

Results flagged for a closer look

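In each group of 4 animals, a gap test was applied to the named genes: the gap between the highest or lowest animal and its nearest neighbour, over the group's whole range, was set against Dixon's critical value. Chance flags about 1 in 20 groups, and 5 of 96 stood out here. Rplp1 read 12.94 in wild-type control 3, against 13.22 to 13.23 in the other 3. Rps6 read 13.39 in Het_control 2, against 13.61 to 13.63, and 13.63 in wild-type control 4, against 13.69 to 13.70. Rps4x read 11.89 in Het high-fat 2, against 11.74 to 11.75. Rpl36a read 11.80 in Het high-fat 3, against 12.04 to 12.08.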

How the results depend on the processing

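The median diet difference of the 58 genes stayed negative under every alternative run, from -0.17 to -0.09 in wild type, -0.20 to -0.14 in heterozygotes and -0.16 to -0.12 over both when arrays were left out in turn, and in all 24 alternatives no member was called higher in any contrast they were run for. The wild-type, genotype and interaction contrasts had 0 members called in all of them, beside at most 1.1% of all genes. The count called in heterozygotes, 6 (2.22% of all genes called in either direction), became 26 (34.8%) with title numbers as random blocks, 19 (5.35%) with array weights, 12 (5.88%) among genes above the median level, 3 (2.42%) with arrays centred on the median gene and 0 (0.0351%) with the 2 groups alone, and ranged from 0 to 21 when arrays were left out (0.226% to 17.3% of all genes). Over both genotypes the count, 4 (1.86%), became 29 (18.6%), 33 (10.6%) and 8 (4.51%) under the first 3 of these, and ranged from 0 to 21 when arrays were left out (0.522% to 8.8% of all genes). The consensus correlation of the block was -0.37. The cause of these shifts was not tested. A few small differences changed sign. Rpl12 in wild type, 0.02, was -0.0187 with the block and ranged from -0.0850 to 0.0917 when arrays were left out, the lowest without high-fat animal 2. Rpl24 in wild type, -0.08, was 0.0092 without high-fat animal 4. Rplp2 in heterozygotes, near 0, was 0.0142 with the block, 0.0291 with centring, and -0.0612 (without Het_control 2) to 0.0343 when arrays were left out. Rps6 in heterozygotes, 0.01, was -0.0313 after repeated normalization, -0.0399 with array weights, and -0.0462 (without Het_control 2) to 0.0339 when arrays were left out. No paired analysis was possible because the groups compared share fewer than 2 title numbers: 1 number occurs on both diets, in wild type.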
